A study of Mus musculus with 9 samples.

Results

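The Hox genes of the mouse lie in 4 clusters, HoxA on chromosome 6, HoxB on chromosome 11, HoxC on chromosome 15 and HoxD on chromosome 2, and 38 of them were taken by symbol from 21853 protein-coding genes of the GENCODE annotation on GRCm38. There were 10 members in HoxA, 10 in HoxB, 9 in HoxC and 9 in HoxD. The peaks came from ChIC-Seq, in which an antibody brings protein A-MNase to a chromatin mark and the nuclease releases the fragments that are sequenced. The cells were primary oviductal muscle cells of WT mice aged 8 to 12 weeks on day 2 of pregnancy, and each library was made from 50000 fixed cells that had been plated for some hours. The samples were 3 for H3K27ac, 3 for H3K4me1 and 3 for IgG, and each of the first 6 gave 1 replicate list of peaks. The authors also called 1 pooled list per mark on its 3 libraries, and counts and values below are over the replicate lists unless the pooled list is named. All groups shared genotype, day and cell preparation, so the comparison was between marks and not between conditions.

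Hox genes encode homeodomain transcription factors that give cells their position along the body axis. Genes in the same place in different clusters form a paralog group, and groups with low numbers act in anterior parts of the embryo while groups with high numbers act in posterior parts, in the order in which the genes lie on the chromosome. In the female tract, Hoxa9, Hoxa10, Hoxa11 and Hoxa13 pattern the Müllerian duct from oviduct to vagina. H3K27ac marks active promoters and enhancers. H3K4me1 is found mostly at enhancers and on the shoulders of promoters, and is often low where a start site is strongly active.

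The lists were permissive, and this bears on every count. The authors called peaks against IgG at a p-value of 0.05 for strong and 0.1 for weak regions, with 40551842 to 78891920 fragments per treatment library and 3110985 to 3713369 per IgG library. The replicate lists held 93684 to 152889 peaks, and covered 3.34% to 5.30% of the genome for H3K27ac and 4.75% to 5.06% for H3K4me1. Each cluster was taken from its first to its last member, and some measures below add flanks of 50 kb on either side. Inside the clusters, without the flanks, a replicate list held 40 to 54 H3K27ac peaks and 23 to 36 H3K4me1 peaks. None of these peaks reached 1.3 in the −log10 q-value column, while 16 to 27 H3K27ac peaks and 3 to 8 H3K4me1 peaks per list reached 1.3 in the −log10 p-value column. The preparation was not sorted. Promoters of 5 of 8 smooth muscle markers and of 6 of 6 stromal markers had an H3K27ac peak in at least 2 of 3 lists, against 0 of 7 epithelial, 1 of 6 blood and 2 of 5 endothelial markers. Myh11, the smooth muscle myosin heavy chain, had none in the 3 H3K27ac replicate lists and 437 bp in the pooled list, and the blood gene Ptprc had one in 3 of 3. The part of cell mixture in the Hox values was not tested, and fewer marked cells cannot be told apart from less mark per cell. Nothing states that the replicates came from separate animals or cultures, so their spread may be technical.

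On average, H3K27ac was at 2.57 times as many Hox promoters as H3K4me1. A promoter was the window of 1 kb on either side of any start of a protein-coding transcript. An H3K27ac peak lay in it for 17, 17 and 20 of the 38 genes in replicates 1, 2 and 3, where 55.3%, 54.1% and 53% of coding genes had one. An H3K4me1 peak lay in it for 9, 6 and 6 genes, where 45.4%, 41.9% and 41.5% of coding genes had one. The 2 sets of lists did not overlap, with 18 ± 1.73 genes for H3K27ac and 7 ± 1.73 for H3K4me1 (SD, n = 3), a difference of 11 genes (exact permutation test, two-sided, p = 0.1, adjusted p = 0.1 over 16 measures). With 3 lists against 3 the smallest p is 0.1, so no measure in this design could reach 0.05. As a share of the 38 members this was 44.7% to 52.6% for H3K27ac, near or below that of coding genes, and 15.8% to 23.7% for H3K4me1, below it in each list. The authors' pooled lists had 21 (56.2% of coding genes) and 11 (56.3%). With gene bodies added to the promoters, 22, 22 and 25 Hox genes had an H3K27ac peak (66.3%, 63.3% and 62.1% of coding genes) and 12, 13 and 10 an H3K4me1 peak (62%, 57.2% and 57.2%).

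Fewer Hox promoters had both marks than had H3K27ac alone. With a mark counted when it was in at least 2 of 3 lists, H3K27ac was at 18 Hox promoters (53.9% of coding genes) and H3K4me1 at 7 (43.7%). In all 3 lists they were at 16 (45.9%) and 3 (27.9%). Both were at 3, Hoxb3, Hoxd3 and Hoxd8, where 39.1% of coding genes had both. H3K27ac alone was at 15 (14.7% of coding genes), and H3K4me1 alone at 4, Hoxc4, Hoxd1, Hoxd4 and Hoxd13 (4.54%). The remaining 16 had neither (41.6%). At 13 Hox promoters H3K27ac was in 3 of 3 lists and H3K4me1 in none, a pattern that 4.19% of coding genes had. At the other end, 13 Hox promoters had no peak in any of the 6 lists (32.8%), and 9 genes had none in body or promoter (23.3%), namely Hoxa2, Hoxa5, Hoxa6, Hoxb1, Hoxb9, Hoxb13, Hoxc12, Hoxc13 and Hoxd12. These counts depend on how many lists are asked for. Both marks were at 6 promoters with at least 1 list of each, and at 6 in the pooled lists. With both marks in all 3 lists 1 gene was left, Hoxd3, and without H3K4me1 replicate 1 the count of both marks was 1 and that of H3K4me1 alone was 2.

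**Figure D1:**
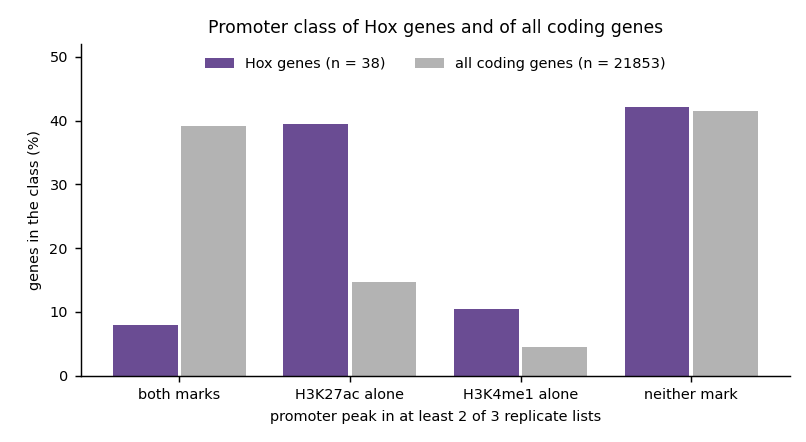
Percent of genes (y axis) in each promoter class (x axis), for the 38 Hox genes and for all 21853 coding genes, with a mark counted when a peak was in at least 2 of 3 replicate lists. The Hox genes had 3 promoters with both marks and 15 with H3K27ac alone, and the share with neither mark was close to that of all coding genes.

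Marked promoters were unevenly placed along the clusters. In paralog groups 9 to 11, 8 of 10 promoters had H3K27ac, each in 3 of 3 lists (45.9% of coding genes), and 0 of 10 had H3K4me1 in any list, where 57.3% of coding genes had it in at least 1. The exceptions were Hoxb9 and Hoxc11, with neither mark at the promoter. In groups 12 to 13, which pattern the most posterior structures, 0 of 6 promoters had H3K27ac in any list (62.5% of coding genes had it in at least 1). H3K27ac was at 1 of 4 promoters in groups 1 to 2, 4 of 7 in groups 3 to 4, and 5 of 11 in groups 5 to 8, counted in at least 2 lists (53.9% of coding genes), and the shares in groups 3 to 4 and 5 to 8 were near that of coding genes. H3K4me1 in at least 2 lists (43.7% of coding genes) was at 4 of 7 promoters in groups 3 to 4 and at 1 of 4, 1 of 11, 0 of 10 and 1 of 6 in groups 1 to 2, 5 to 8, 9 to 11 and 12 to 13. Neighbouring members can share a peak and are not independent. An H3K27ac peak lay over the promoters of both Hoxd9 and Hoxd10 in replicates 1 and 2, and over those of Hoxa7, Hoxa9, Hoxa10 and Hoxa11 in replicate 2. The annotated body of Hoxa3 overlaps those of Hoxa4, Hoxa5 and Hoxa6, that of Hoxc5 those of Hoxc6, Hoxc8, Hoxc9 and Hoxc10, and that of Hoxd3 that of Hoxd4.

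**Figure D2:**
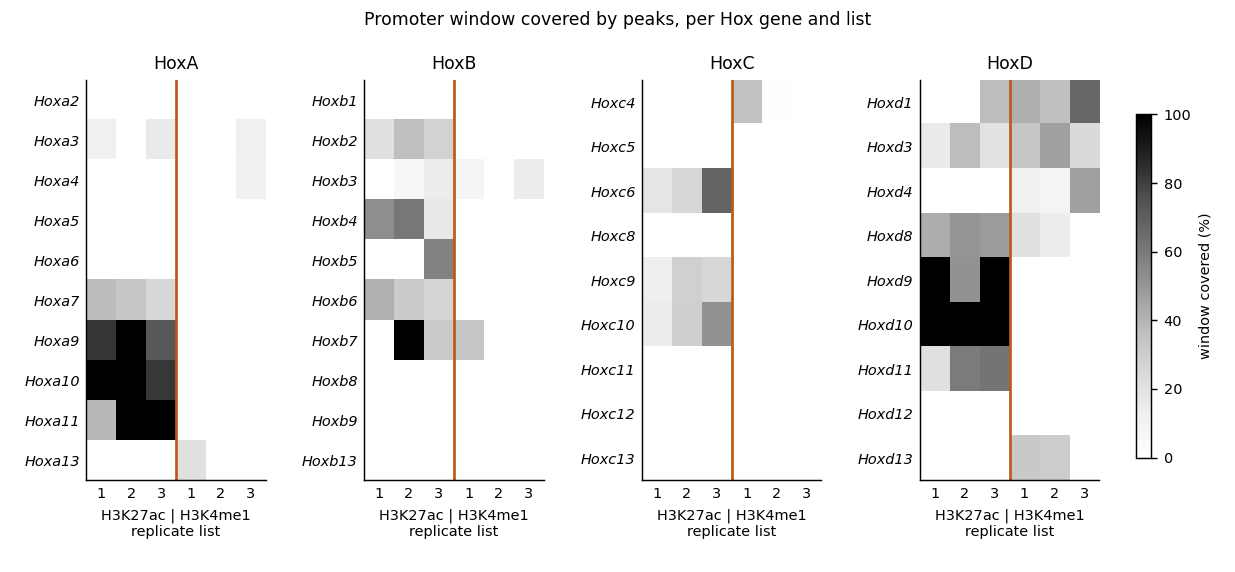
Percent of each gene's promoter window covered by peaks (grey scale, 0 to 100%) for the 38 Hox genes in paralog order (rows) and the 6 replicate lists (columns, H3K27ac left of the line and H3K4me1 right). Hoxa9 to Hoxa11 and Hoxd9 to Hoxd10 are darkest for H3K27ac and blank for H3K4me1, and Hoxa13, Hoxb13, Hoxc13 and Hoxd12 are blank for H3K27ac.

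The promoters of the Müllerian genes split between Hoxa11 and Hoxa13. Hoxa9 (ENSMUSG00000038227.15, chr6:52223100-52231089, minus strand), which is expressed in the developing oviduct, had 82.8%, 100% and 72.5% of its promoter window covered by H3K27ac in replicates 1, 2 and 3. Hoxa10 (ENSMUSG00000000938.11, chr6:52231197-52240854, minus strand), a regulator of uterine development and receptivity, had 100%, 100% and 82.1%. Hoxa11 (ENSMUSG00000038210.10, chr6:52242106-52245810, minus strand), also required in the uterus, had 38.9%, 100% and 100%. These 3 promoters were covered by at least 38.9% in every H3K27ac list and by 0 in every H3K4me1 list. Hoxa13 (ENSMUSG00000038203.18, chr6:52257694-52260880, minus strand), which acts in the caudal tract and the limb, had 0 of its promoter window in all 3 H3K27ac lists, and 20.9% in H3K4me1 replicate 1 alone. In H3K27ac replicate 1 a peak covered 5.71% of the Hoxa13 body.

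The 250 bases before the starts of these 4 genes are shown because they were wholly inside H3K27ac peaks at Hoxa9, Hoxa11 and the downstream start of Hoxa10 in 3 of 3 lists, and wholly outside them at Hoxa13. At the upstream start of Hoxa10 they were inside in replicates 1 and 2 and outside in replicate 3. They are from RefSeq on GRCm38.p6, 5′ to 3′ on the minus strand, with CG dinucleotides in capitals. Of all members, Hoxa10 had the most promoter bases under H3K27ac, and Hoxa13 had none in any list. H3K27ac was in at least 1 list at 20 of 38 Hox promoters, beside 62.5% of coding genes.
Hoxa9, chr6:52227371-52227620: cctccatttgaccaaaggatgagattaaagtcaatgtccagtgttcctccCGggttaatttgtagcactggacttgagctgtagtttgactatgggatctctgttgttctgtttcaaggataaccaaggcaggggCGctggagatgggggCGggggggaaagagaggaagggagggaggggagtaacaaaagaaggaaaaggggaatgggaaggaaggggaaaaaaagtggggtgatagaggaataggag
Hoxa10 upstream start, chr6:52240855-52241104: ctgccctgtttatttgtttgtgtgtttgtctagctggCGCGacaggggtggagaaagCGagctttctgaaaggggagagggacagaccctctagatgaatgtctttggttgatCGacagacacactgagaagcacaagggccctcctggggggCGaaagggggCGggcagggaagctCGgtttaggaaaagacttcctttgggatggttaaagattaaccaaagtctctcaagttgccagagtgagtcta
Hoxa10 downstream start, chr6:52234940-52235189: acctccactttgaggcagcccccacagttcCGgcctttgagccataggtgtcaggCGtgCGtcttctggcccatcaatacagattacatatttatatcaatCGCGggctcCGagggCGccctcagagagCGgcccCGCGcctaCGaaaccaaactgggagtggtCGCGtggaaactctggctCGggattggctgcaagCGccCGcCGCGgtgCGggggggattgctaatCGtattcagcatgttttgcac
Hoxa11, chr6:52245811-52246060: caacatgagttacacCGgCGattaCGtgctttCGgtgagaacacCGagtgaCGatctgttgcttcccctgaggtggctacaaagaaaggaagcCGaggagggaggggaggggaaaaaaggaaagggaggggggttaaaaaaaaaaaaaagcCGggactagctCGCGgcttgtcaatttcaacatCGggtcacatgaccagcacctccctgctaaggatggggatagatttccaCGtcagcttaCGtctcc
Hoxa13, chr6:52260881-52261130: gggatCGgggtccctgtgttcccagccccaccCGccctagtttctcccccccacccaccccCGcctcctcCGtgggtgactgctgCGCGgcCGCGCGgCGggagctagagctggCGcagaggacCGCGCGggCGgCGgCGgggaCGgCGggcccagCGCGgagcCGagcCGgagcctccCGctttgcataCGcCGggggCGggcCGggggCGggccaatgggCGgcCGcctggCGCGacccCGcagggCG
The Hoxa9 sequence held 3 CG dinucleotides, the Hoxa10 sequences 7 upstream and 20 downstream, the Hoxa11 sequence 13 and the Hoxa13 sequence 35. The Hoxa11 window overlaps exons annotated to Gm28032 and to the antisense RNA Hoxa11os.

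In HoxA the H3K27ac peaks lay close together from the upstream edge of Hoxa7 to beyond Hoxa11, in 5 peaks in replicate 1, 1 in replicate 2 and 6 in replicate 3. In replicate 2 a single peak of 27925 bp (chr6:52221293-52249217) lay over the promoters of Hoxa7, Hoxa9, Hoxa10 and Hoxa11, with a mean pileup of 3.25 scaled fragments and a fold enrichment of 2.16 over local background. In replicate 1 the longest piece had 14413 bp and lay over Hoxa10. In replicate 3 the longest, of 7230 bp, did too. The list called by the authors on all 3 libraries had 1 peak of 28504 bp there (chr6:52220623-52249126). The stretch from Hoxa9 to Hoxa11 (22.7 kb, chosen after its values were seen, as were the other stretches below) was covered to 86.3%, 100% and 83.1% by H3K27ac and to 0 in each H3K4me1 list. The stretch from Hoxa2 to Hoxa6 (46.3 kb) had the reverse order, with 0, 5.26% and 0.393% for H3K27ac against 12.3%, 10.4% and 7.30% for H3K4me1. The H3K4me1 there lay mostly within the long annotated body of Hoxa3, a gene of the pharyngeal region, which was covered to 11.7%, 10.9% and 7.64%. Hoxa4 had H3K4me1 over 18.6%, 0 and 30.7% of its body. Hoxa2, a hindbrain gene, and Hoxa5, known for its role in the lung, had no peak at all.

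**Figure D3:**
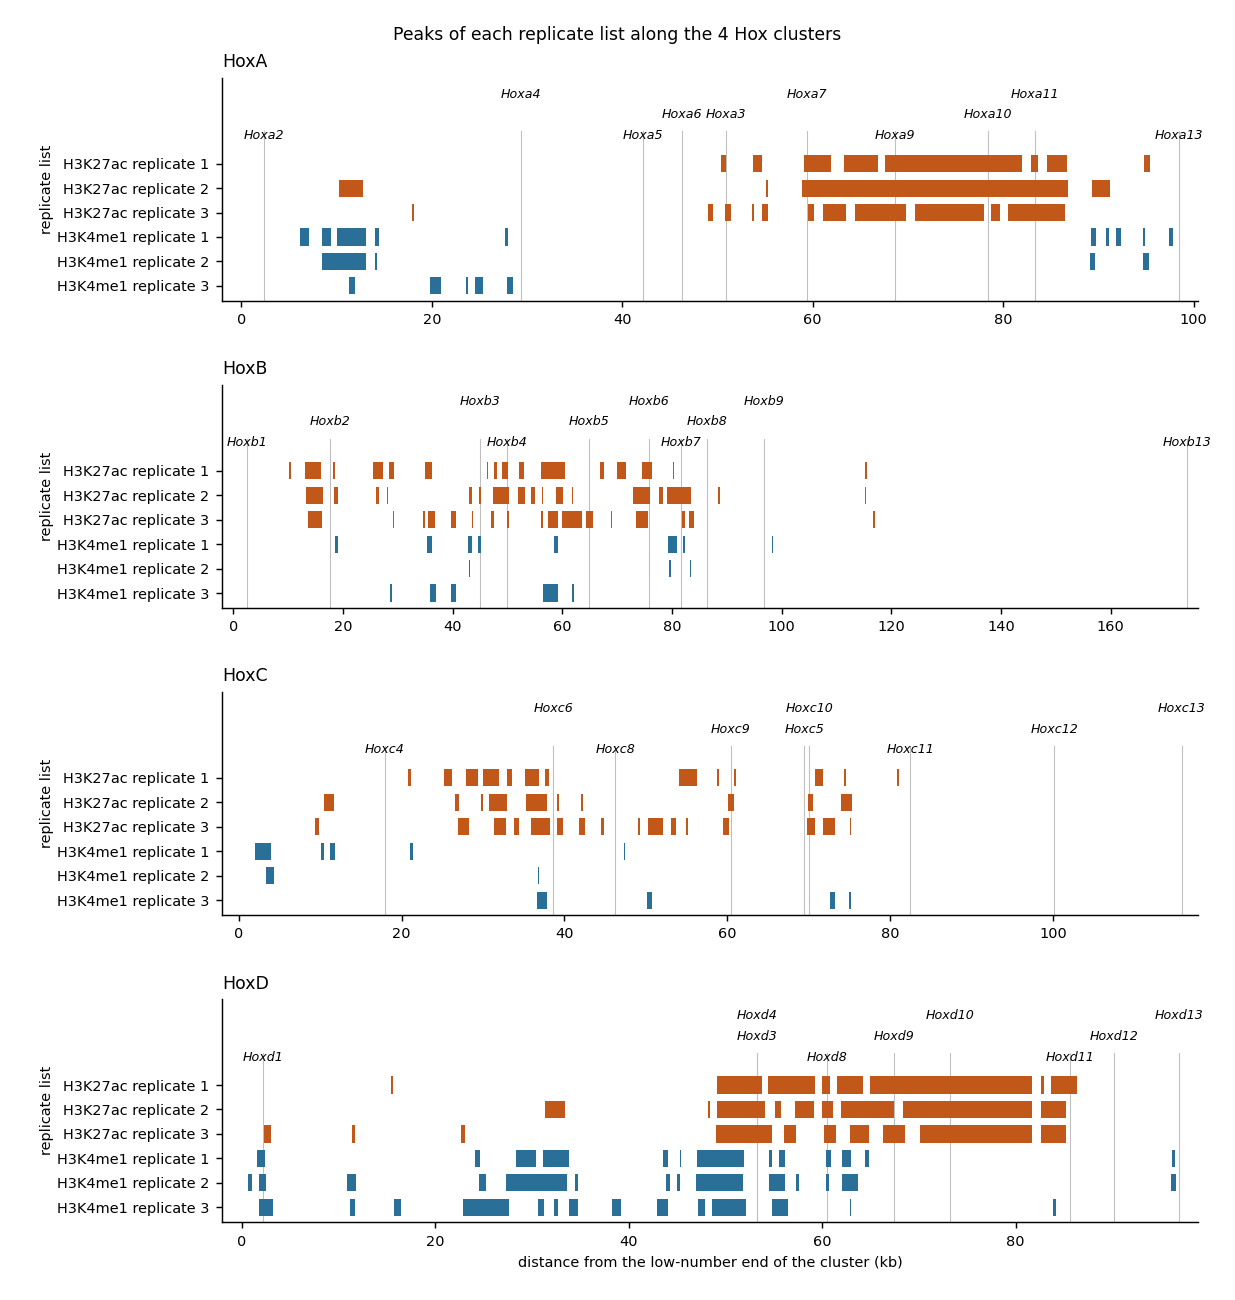
Peaks of the 6 replicate lists (bars, H3K27ac orange, H3K4me1 blue) against distance in kb from the low-number end of each cluster. Grey lines mark the 5′ end of each annotated gene, so genes with a long upstream transcript (Hoxa3, Hoxc5, Hoxd4) are drawn away from their paralog order. The H3K27ac bars cover most of Hoxa9 to Hoxa11 and of Hoxd8 to Hoxd11 and are absent over Hoxd12 to Hoxd13, while the longest H3K27ac bar of HoxB and of HoxC is shorter than that of HoxA and HoxD in each list.

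HoxD had the second long block of H3K27ac, and held 46.9%, 70.7% and 61.1% of the H3K4me1 bases inside the 4 clusters. Hoxd10, a gene of the lumbar cord and hindlimb, was the one member whose promoter was covered to 100% by H3K27ac in all 3 lists. Hoxd9 had 100%, 51.2% and 100%, and Hoxd11, which acts in forelimb and kidney, had 20.7%, 59.7% and 62.1%. None of these 3 promoters had H3K4me1 in any list. The stretch from Hoxd8 to Hoxd11 (28.4 kb) was covered to 86.0%, 86.0% and 69.4% by H3K27ac, and to 6.33%, 8.30% and 1.50% by H3K4me1. The longest single peaks had 16714, 13306 and 11541 bp, all over the Hoxd10 promoter, and the authors' pooled peak there had 21690 bp (chr2:74683444-74705133). The last H3K27ac base inside the cluster lay 10.5, 11.6 and 11.6 kb from its high-number end, just beyond Hoxd11 in replicate 1 and within the annotated Hoxd11 body in replicates 2 and 3, and Hoxd12 and Hoxd13 (9.40 kb together) had 0 in all 3 H3K27ac lists. At Hoxd13, required for digits and for the genital tubercle, H3K4me1 covered 31.8%, 30.8% and 0 of the promoter window.

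On the low-number side of HoxD the marks changed places. From Hoxd1 to Hoxd3 (53.2 kb, chosen after its values were seen) H3K27ac covered 7.97%, 11.9% and 10.7%, and H3K4me1 covered 21.9%, 28.2% and 29.4%. At Hoxd4 the promoter windows had 11.3%, 8.6% and 46.6% under H3K4me1 and 0 under H3K27ac. Hoxd1 had 41.9%, 36.0% and 67.1% under H3K4me1, and under H3K27ac it had 37.2% in replicate 3 only. Hoxd3 was the only member with both marks in all 6 lists. It has 5 starts, and its windows were covered to 15.5%, 37.3% and 20% by H3K27ac and to 33.6%, 46.8% and 24.3% by H3K4me1. Hoxd8 had 42.4%, 50.1% and 48.1% under H3K27ac, and 20.96%, 13.7% and 0 under H3K4me1.

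In HoxB, H3K27ac lay mostly in separate pieces between Hoxb2 and Hoxb8, the longest of 4416, 4320 and 3729 bp in replicates 1, 2 and 3. Hoxb2, a hindbrain gene, had 20.99%, 36.6% and 27.9% of its promoter covered. Hoxb4, studied mainly in blood stem cells, had 52.4%, 60.9% and 16.7%, and Hoxb6 had 41.7%, 31.1% and 26.3%. All 3 were marked in every H3K27ac replicate list and in no H3K4me1 replicate list, although the pooled H3K4me1 list covered 16.6% of the Hoxb4 window. Hoxb7 varied, with 0, 100% and 31.4% under H3K27ac and 33.3%, 0 and 0 under H3K4me1. Hoxb5 had 56.7% in H3K27ac replicate 3 and 0 in the others. Hoxb3, marked in 3 of 3 H3K27ac lists, had only 0.317%, 6.83% and 14.3% of its windows covered. The stretch from Hoxb1 to Hoxb7 (81.6 kb) was covered to 23.8%, 22.5% and 19.6% by H3K27ac and to 6.12%, 0.892% and 6.34% by H3K4me1. From Hoxb9 to Hoxb13 (82.3 kb), which holds the long gap before the prostate gene Hoxb13, H3K27ac covered 0.369%, 0.237% and 0.572%. Hoxb8 had no promoter peak of either mark, and Hoxb1 none anywhere.

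HoxC held marked genes in its middle. Hoxc6 had 18.1%, 25.9% and 67.7% of its promoter under H3K27ac. Hoxc9, a gene of the thoracic region, had 12.95%, 28.8% and 26.0%, and Hoxc10 had 14.8%, 29.4% and 51.4%. Each was marked in 3 of 3 H3K27ac lists and in no H3K4me1 list, and Hoxc9 and Hoxc10 had lower cover than their HoxA and HoxD paralogs in each H3K27ac list. Hoxc8, between Hoxc6 and Hoxc9, had no promoter peak in the 6 replicate lists, and 16.9% of its window was covered in the pooled H3K27ac list. From Hoxc6 to Hoxc10 (45.1 kb) H3K27ac covered 21.8%, 15.5% and 25.3%, and from Hoxc11 to Hoxc13 (36.6 kb) 0.626%, 0 and 0. Hoxc13, a regulator of hair and nail, had no peak in any list. Hoxc4 was the one HoxC promoter with H3K4me1 in a replicate list, at 35.2%, 0.950% and 0. Hoxc5 had no replicate peak at its coding start, where the pooled lists covered 29.9% with H3K27ac and 24.0% with H3K4me1, and 20.3%, 13.7% and 22.3% of its annotated gene body, which reaches back to Hoxc10, lay under H3K27ac.

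Over whole clusters H3K27ac covered more than H3K4me1 in each of the 4. HoxA with its flanks was covered to 13.4%, 16.5% and 13.4% by H3K27ac and to 5.82%, 2.99% and 2.75% by H3K4me1. HoxD was covered to 17.1%, 16.9% and 14.5% against 9.56%, 10.5% and 8.99%. HoxB had 7.22% ± 0.526 against 1.61% ± 1.02, and HoxC 6.07% ± 0.876 against 1.66% ± 0.886 (SD, n = 3). For the 4 together the shares were 10.5% ± 0.622 and 3.92% ± 0.768. The lists of the 2 marks did not overlap in any cluster (exact permutation p = 0.1, adjusted p = 0.1, the smallest possible). For HoxD this rested on the width of the flank, since with 100 kb on either side the difference was 1.66 percentage points and the exact permutation p was 0.4.

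The lists differ in how much of the genome they cover, so each share was divided by that of the same list over the genome. The Hox clusters were covered 1.96, 2.99 and 3.00 times as much as the genome by H3K27ac, and 0.946, 0.673 and 0.766 times by H3K4me1. With these flanks all H3K27ac lists lay above the genome share and all H3K4me1 lists below it (difference 1.85, exact permutation p = 0.1, adjusted p = 0.1). Inside the clusters alone the ratios were 3.49, 5.25 and 5.25 for H3K27ac and 1.28, 1.14 and 1.26 for H3K4me1. Over the clusters together both marks thus lay above the genome share, and the difference was 3.44. For H3K4me1 the clusters differed, with a mean cover inside of 17.9% in HoxD, 5.76% in HoxA, 2.24% in HoxB and 2.11% in HoxC. The H3K4me1 lists covered 4.75% to 5.06% of the genome. With the flanks, HoxD was the one cluster that H3K4me1 also covered more than the genome in each list, 1.89, 2.12 and 1.89 times, beside 3.23, 4.49 and 4.33 times for H3K27ac. HoxA had 3.64 ± 0.988 for H3K27ac and 0.777 ± 0.323 for H3K4me1. HoxB and HoxC had 1.81 ± 0.373 and 1.55 ± 0.547 for H3K27ac, and 0.328 ± 0.204 and 0.336 ± 0.175 for H3K4me1. Within a single IgG library the direction was the same, with 2.99 against 0.810 for IgG replicate 2 and 3.00 against 0.766 for IgG replicate 3. Antibody and mark cannot be told apart in this design.

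**Figure D4:**
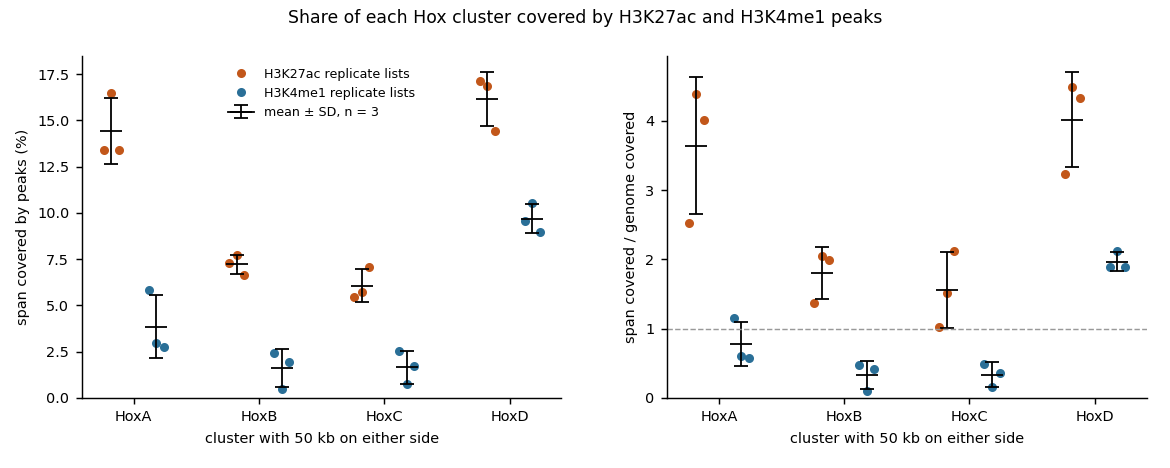
Share of each cluster covered by peaks in percent (left) and as a ratio to the share of the genome covered by the same list (right, dashed line at 1), with points for replicate lists and bars for mean ± SD (n = 3). H3K27ac points lie above H3K4me1 points in all 4 clusters, and with the flanks H3K4me1 lies above 1 in all 3 lists in HoxD alone.

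The cover lay mostly inside the clusters. Between the first and last member H3K27ac covered 28.1% ± 4.22 of HoxA, 11.2% ± 0.858 of HoxB, 10.3% ± 1.84 of HoxC and 32.1% ± 2.63 of HoxD. In the 50 kb flanks it covered 0.288% to 1.16% on average. H3K4me1 covered 5.76% ± 2.21, 2.24% ± 1.44, 2.11% ± 1.06 and 17.9% ± 2.43 inside, and 0.520% to 1.97% in the flanks.

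The direction along the cluster differed between clusters for H3K27ac. The part with paralog groups up to 8 was set against the part with groups from 9 on, as a difference in covered share in percentage points. In HoxA it was -55.3, -66.8 and -53.2 for H3K27ac, so the posterior part was covered more, and 3.97, 5.00 and 5.57 for H3K4me1. In HoxD it was -41.3, -36.0 and -33.5 for H3K27ac, and 21.1, 27.8 and 26.0 for H3K4me1. In these 2 clusters the marks thus had opposite signs in all 6 lists. In HoxB and HoxC both marks covered the anterior part more, with 20.5 ± 1.95 and 10.1 ± 1.77 for H3K27ac and 4.11 ± 2.60 and 3.81 ± 2.60 for H3K4me1. Each of these 4 differences between marks had lists that did not overlap (exact permutation p = 0.1, adjusted p = 0.1). Among peaks that reached 1.3 in −log10 p-value, the HoxB difference between marks went from 16.4 to 9.53 (exact permutation p = 0.1). For HoxC the separation was lost with that filter, where the difference went from 6.33 to 3.06 and the exact permutation p was 0.4. Summed over the clusters the values were -5.22 ± 0.620 and 9.45 ± 0.499, a sum over opposite directions, and in the pooled H3K27ac list it was 0.0886.

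**Figure D5:**
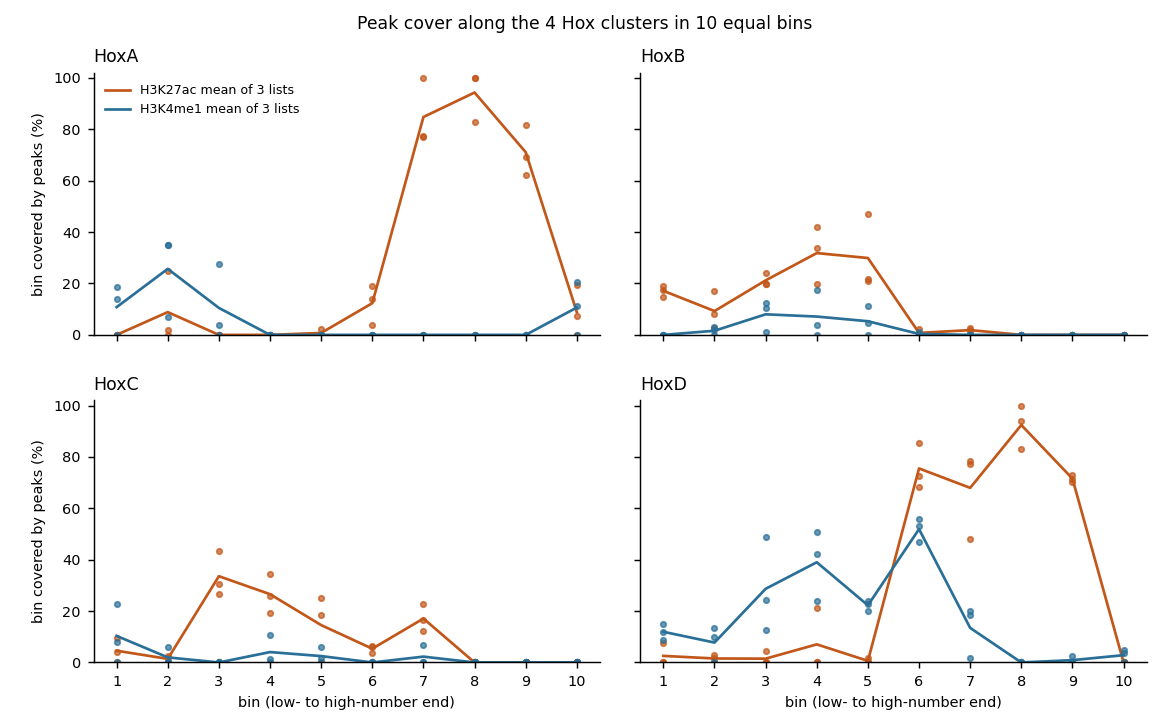
Percent of each of 10 equal bins of a cluster covered by peaks (y axis) from the low-number to the high-number end (x axis), with points for the 6 replicate lists and lines for the mean of 3 lists. Mean H3K27ac cover is highest in bin 8 of HoxA and HoxD, around Hoxa10 and Hoxd10, and is at 0 in bin 10 of HoxB, HoxC and HoxD.

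In HoxA bin 8, which holds the start of Hoxa10, was covered to 100%, 100% and 83.0% by H3K27ac. In HoxD bin 8, which holds the start of Hoxd10, was covered to 100%, 94.0% and 83.2%. H3K4me1 was at 0 in both bins in all 3 lists. Its mean was highest in bin 6 of HoxD, with 46.8%, 55.8% and 53.1%, where H3K27ac also covered 85.5%, 68.3% and 72.7%. That bin holds the 5′ ends of the annotated Hoxd3 and Hoxd4 bodies. The windows at the coding starts of Hoxd4 had no H3K27ac peak in any list.

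The length of H3K27ac peaks at Hox promoters, set against that at all coding promoters, varied between lists. The median was 1675, 2613 and 1178 bp in replicates 1, 2 and 3, beside 1638, 1682 and 1495 bp, and in the pooled list it was 1522 beside 2406 bp. The replicate medians were at percentiles 86.5, 92.0 and 76.3 of their own list, beside 86.1, 84.1 and 82.8 for peaks at all coding promoters. The fold enrichment was at percentiles 92.7, 85.7 and 86.8, beside 92.9, 90.4 and 90.2 for all coding promoters, and in the pooled list at 40.1 beside 86.5. H3K4me1 peaks at Hox promoters were at length percentiles 41.4, 41.0 and 55.0, beside 64.7, 61.1 and 61.0 for all coding promoters. Those H3K4me1 peaks were thus shorter than the usual promoter peak of the same list.

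Replicates of H3K27ac shared more of their bases inside the clusters than across the genome. The shared bases over the bases in either list (Jaccard index) were 0.432 to 0.532 for the 3 pairs of H3K27ac lists, against 0.224 to 0.264 over the genome. For H3K4me1 they were 0.473 for replicates 1 and 2, which were called against the same IgG library, and 0.168 and 0.215 for the pairs with replicate 3, against 0.298 to 0.487 over the genome. Between marks the 9 pairs had 0.0501 to 0.132, against 0.188 to 0.328 over the genome. The 3 pairs with an IgG library in common had 0.107, 0.111 and 0.132, above the other 6. The part of the shared IgG library in this overlap was not tested.

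MicroRNA genes of one family differed in their marks. Mir196b lies within the annotated body of Hoxa9, and Mir10a lies upstream of Hoxb4. Both had H3K27ac within 1 kb of the start in 3 of 3 lists and no H3K4me1 in the replicate lists. Mir10b near Hoxd4 had no H3K27ac and H3K4me1 in 1 of 3, and Mir196a-1 near Hoxb9 and Mir196a-2 near Hoxc10 had neither mark. The mature sequences are shown because members of each family share a seed, bases 2 to 8 in capitals, while their genes differed in marks. They are from RefSeq, 5′ to 3′.
miR-10a-5p: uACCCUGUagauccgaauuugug
miR-10b-5p: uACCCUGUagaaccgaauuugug
miR-196a-5p: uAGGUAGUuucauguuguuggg
miR-196b-5p: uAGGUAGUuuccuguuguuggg
In the 2085 bases around the Mir196b hairpin (chr6:52230081-52230165, minus strand), H3K27ac covered 1325, 2085 and 2085. Around the Mir10a hairpin (chr11:96317165-96317274, plus strand) it covered 119, 384 and 240 of 2110. Both miR-196a genes encode the same mature sequence and both were at 0 in all 6 lists.

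Of 12 noncoding RNA genes of the clusters, 5 had H3K27ac (53.9% of coding genes) and 3 had H3K4me1 (43.7%) in at least 2 of 3 lists. Hoxd3os1 had both marks in all 6 lists, as did its neighbour Hoxd3. Hotair, the HoxC antisense RNA between Hoxc11 and Hoxc12, had neither. Hottip, beyond Hoxa13, had H3K4me1 in 1 list. Antisense transcripts overlap Hox promoters, and a peak there cannot be assigned to one strand.

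Most genes for Hox cofactors had both marks. Of 9 TALE genes, whose homeodomain products bind DNA with Hox proteins, 8 had H3K27ac (53.9% of coding genes) and 7 had H3K4me1 (43.7%) in at least 2 lists, and 6 had both (39.1%). Meis1 and Meis2 had H3K27ac in 3 of 3 and H3K4me1 in none, the pattern of the 13 Hox promoters above. All 7 Polycomb and trithorax genes, whose products set and keep Hox clusters silent or active, had H3K27ac and 5 had H3K4me1, beside the same shares of coding genes. The 6 ParaHox genes, relatives of the Hox genes outside the clusters, had neither mark in at least 2 lists (41.6% of coding genes), and Cdx4 had each in 1. Of 9 genes beside the clusters 4 had H3K27ac (53.9% of coding genes) and 3 had H3K4me1 (43.7%) in at least 2 lists. Evx1 and Evx2, homeobox genes just beyond Hoxa13 and Hoxd13, had no H3K27ac, while Lnpk and Mtx2 on the 2 sides of HoxD had both marks in all 6 lists.

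RefSeq gave 24 promoter sequences for 22 of the 38 members. In the 250 bases before the start they held a median of 12.5 CG dinucleotides (2 to 35), beside 6 over 32851 promoters, and a median GC content of 58.6% beside 52.4%. The 11 windows that H3K27ac touched in at least 2 of 3 lists had a median of 13 (3 to 20), and the 13 others had 10 (2 to 35), so the ranges overlapped. The 2 richest windows, Hoxa13 with 35 and Hoxd13 with 31, had no H3K27ac. Motifs were searched as exact letters on both strands. CCAAT was in 14 of 24 Hox windows (33.8% of all promoters), GGGCGG in 10 (32.7%) and TATAAA in 4 (12.4%). The PBX-HOX motif TGATTNAT was in 2, Hoxa2 and Hoxd11 (2.82%), and the posterior HOX motif TTTATNG in 2, Hoxb8 and Hoxd4 (9.81%). A match is only a match of letters.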

How the data were processed

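Peak lists from ChIC-Seq were analysed, 1 for each of 3 H3K27ac and 3 H3K4me1 samples and 1 pooled per mark. The 3 IgG samples entered as controls of the authors' calls. The submitters' processing notes name cutadapt, Bowtie2, MACS2 and GRCm38.p5, and the paper given describes another experiment. Per the file headers, the authors called broad peaks with MACS 2.2.7.1 in paired-end mode and scaled the larger library to the smaller. The deposited pileup is a coverage signal in scaled fragments, the deposited fold enrichment is a ratio to local background, and the deposited p-value and q-value are on the −log10 scale. IgG replicate 1 served as the control of H3K27ac replicate 1. IgG replicate 2 served H3K27ac replicate 2 with H3K4me1 replicates 1 and 2, IgG replicate 3 served replicate 3 of both marks, and the pooled lists used all 3. The depth of the IgG libraries limits how small a p-value can be.

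Gene models came from GENCODE M21 (GRCm38), on 21 chromosomes, with promoters of 1 kb on either side of a coding transcript start. A gene was marked when a peak overlapped its window by at least 1 base, and covered length was the union of a list's peaks. One value per list was compared between marks by a two-sided exact permutation test over 20 assignments, with Benjamini-Hochberg adjustment over 16 measures. Paired numbers, other windows, flanks and filters were tried as alternatives. Python 3.11.15, numpy 2.4.6, pandas 2.3.3 and matplotlib 3.10.9 were used. On simulated data, 0 of 800 interval overlaps differed from a count base by base, and 105 of 1000 tests without a shift gave an exact permutation p of 0.1, as did 1000 of 1000 with one. All 38 members were named, with cofactors, regulators, relatives, noncoding RNAs, neighbours and markers from lists. The members and lists were chosen with earlier results of these data known. One gene of the clusters is not reported here.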

Additional observations from a re-analysis of the deposited data

How the results depend on the processing

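All 205 values of the 16 tested measures under other settings kept their direction, but 28 moved by over 1.5 times. Without flanks 10 measures of cover were 1.59 to 2.198 times the reported difference, with 100 kb flanks 8 were 0.256 to 0.641 times, and with peaks that reached 1.3 in −log10 p-value 9 were 0.469 to 4.90 times, the difference between marks in the ratio to the genome going from 1.85 to 5.70 over all clusters and from 2.05 to 10.04 in HoxD. With peaks above their list's median fold enrichment, 1 was 1.57 times. Of 96 values with 1 list left out, 8 had an exact permutation p of 0.2 and the others 0.1. Of 48 counts of Hox promoters by class, 37 stayed within 1.5 times. Both marks (3 genes) became 1 with all 3 replicates asked for, 6 with at least 1, 6 in the pooled lists and 1 with peaks that reached 1.3 in −log10 p-value. H3K4me1 alone (4 genes) became 2 with all 3 replicates, 0 with that p-value and 1 with windows of 250 bp. Neither mark (16 genes) became 26 with that p-value. Leaving out 1 list gave 1 to 3 genes with both marks and 2 to 4 with H3K4me1 alone, the lowest without H3K4me1 replicate 1, and for the latter also without H3K4me1 replicate 2. The causes were not tested. With a minimum of 1.3 in −log10 q-value no peaks were left, so that setting gave no value. It is not stated whether the replicate numbers pair the lists of the 2 marks. Deviations over 38 genes correlated at r = -0.240, -0.0766 and 0.224 for the same numbers and at -0.302 to 0.412 for different numbers. These values cannot decide the question, since members share peaks and some lists share an IgG library. With the replicate block the difference in marked promoters was again 11 and the smallest possible exact permutation p was 0.25.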
